A study of Schmidtea mediterranea with 36 samples.

Results

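Transcripts of the endoplasmic reticulum (ER) of the planarian Schmidtea mediterranea were followed through starvation, 4 in number: the stress sensor atf6 (dresden_comp3847_c0_seq1), the chaperones bip-1 (dresden_comp511_c0_seq1) and bip-2 (dresden_comp2648_c0_seq1), and the calreticulin calr (dresden_comp220_c0_seq1). They were taken by transcript identifier, and all 4 were found among the 26558 transcripts of each table. The study names a further BiP gene that is not among these 4, so the BiP transcripts below are bip-1 and bip-2. The libraries came from asexual planarians starved for 1, 7 or 30 days (1dS, 7dS and 30dS), whose cells were sorted by FACS into X1 (cycling stem cells, in S or G2/M), X2 (stem cells in G0/G1 together with stem cell progeny) and Xins (differentiated cells). Each of the 9 groups had 4 replicates, 36 libraries in all, and neither gene knockdown nor amputation was part of these samples. The 1dS animals, the most recently fed, served as the reference for the starved ones. A sorted gate is a mixture and not a single cell type, and the sources state the number of planarians behind a replicate at 30dS only, so the spread behind each p-value is that among these samples and may be partly technical.

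The ER folds secreted and membrane proteins. BiP is the Hsp70 of the ER lumen: it binds unfolded chains and, in mammalian cells, holds the stress sensors inactive until unfolded protein draws it away. Calreticulin is a lectin that binds calcium and holds newly made glycoproteins until they are folded. ATF6 is a membrane-bound transcription factor which, on ER stress in mammals, moves to the Golgi, is cut there, and enters the nucleus to raise the transcription of BiP and other chaperones. It is therefore controlled largely by cleavage, which RNA levels do not show. XBP1, the other factor followed here, is made active in many animals by splicing of its mRNA, which a summed transcript level does not show either.

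Levels are normalized TPM, transcripts per 1000000 after the authors' scaling of each library. Because TPM is per transcript length, levels of different genes can be set side by side. The sum of a library ran from 638389 to 1935392 and not to 1000000, and the 10 most abundant transcripts held between 5.95% and 21.7% of it. The reads behind a value are unknown, so no counting error can be given. The marker cdk1, a kinase needed for entry into mitosis, reached 38.4 to 78.6 TPM in X1 against 1.20 to 9.34 in X2 and at most 0.270 in Xins after scaling to a total of 1000000, highest in the gate of dividing cells. bip-1 and bip-2 code for related proteins and could exchange ambiguous reads, so the split between them is uncertain.

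The 4 transcripts differed widely in abundance. In the median library calr exceeded 98.3% of all transcripts, bip-1 97.5%, bip-2 89.8% and atf6 86.4%. Over the 36 libraries calr ran from 128 to 709 normalized TPM, bip-1 from 61.5 to 667, bip-2 from 21.8 to 92.3 and atf6 from 10.5 to 60.2. The sensor was the least abundant of them in every X1 library, whereas in starved Xins libraries it lay above bip-2.

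In values as deposited, starvation went with lower BiP transcripts in each population and with little movement of the sensor. bip-1 was between 1.83- and 2.58-fold lower in the mean of starved groups than at 1dS, and bip-2 between 1.41- and 2.19-fold lower. calr and atf6 passed the test in none of the 6 comparisons of 7dS or 30dS with 1dS when replicate numbers were left out of the fit. The test was limma on log2(normalized TPM + 1), with Benjamini-Hochberg adjustment over all transcripts with a mean of at least 1 and a threshold of 0.1. Log2 changes are on that scale, and the comparisons within a population share their 1dS libraries.

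**Figure D1:**
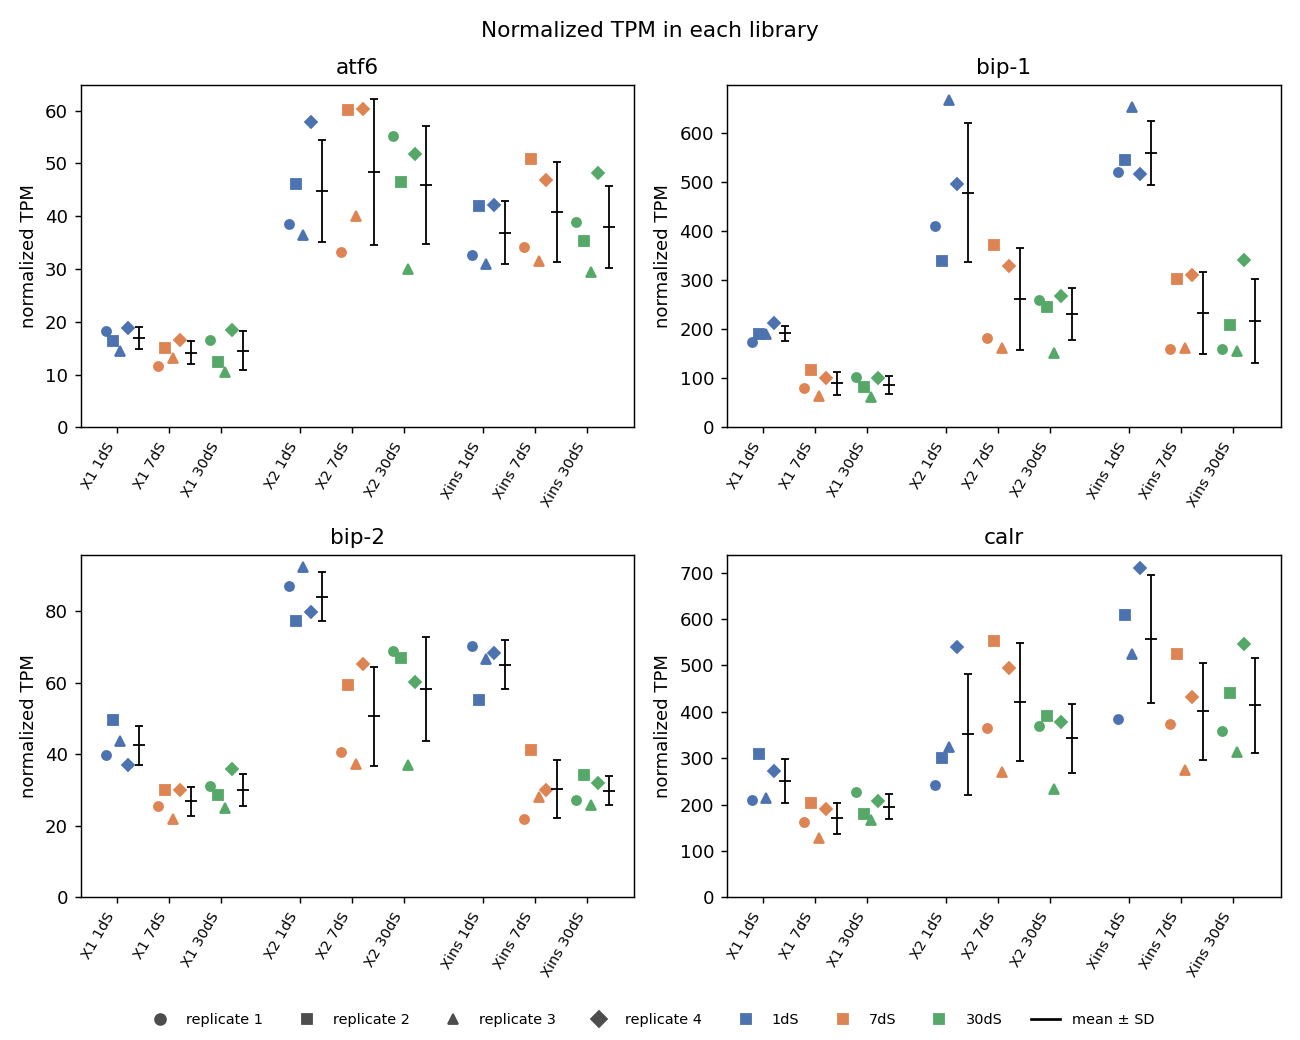
Normalized TPM (vertical axis, from 0) of atf6, bip-1, bip-2 and calr in each of the 36 libraries, by population and days of starvation. Point shapes give the replicate, and the black bar to the right of each group is the mean with its SD (n = 4). All 4 starved libraries of either time lie under all 1dS libraries for bip-2 in each population, and for bip-1 in all but X2 at 7dS, while the atf6 groups overlap throughout.

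In X1, bip-1 was 174, 190, 190 and 212 normalized TPM at 1dS, 79.5, 117, 63.7 and 99.8 at 7dS, and 102, 82.4, 61.5 and 99.4 at 30dS. Every starved library lay below every 1dS library. The log2 change was -1.11 (SE 0.22, adjusted p = 0.0138, limma) at 7dS and -1.17 (SE 0.22, adjusted p = 0.0134, limma) at 30dS, and leaving out each library in turn gave adjusted p between 0.0206 and 0.0464. bip-1 belongs to a folding list that the study drew from transcripts falling in these X1 libraries, so its direction in X1 is not independent evidence.

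The X2 values of bip-1 were 409, 339, 667 and 496 normalized TPM at 1dS, 183, 371, 162 and 328 at 7dS, and 259, 244, 152 and 267 at 30dS. Replicates 2 and 4 of 7dS were high and replicate 2 overlapped the 1dS group, and at 30dS the groups did not overlap. bip-1 fell by 0.92 on the log2 scale at 7dS (SE 0.32, adjusted p = 0.0916, limma) and by 1.04 at 30dS (SE 0.32, adjusted p = 0.0515, limma). These calls did not hold with each library left out. At 7dS the adjusted p ran from 0.0798 to 0.206 as each library was left out, and the call was lost without 1dS replicate 1 (0.135), 1dS replicate 3 (0.206), 1dS replicate 4 (0.108), 7dS replicate 1 (0.206) or 7dS replicate 3 (0.205). At 30dS it ran from 0.0535 to 0.125, past the threshold without 1dS replicate 3 (0.125) or 30dS replicate 3 (0.117).

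The largest fall of bip-1 was measured in Xins, at 520, 544, 653 and 516 normalized TPM at 1dS, 160, 301, 161 and 311 at 7dS, and 160, 209, 156 and 340 at 30dS. No starved library reached the lowest 1dS value. The log2 change was -1.32 (SE 0.31, adjusted p = 0.0456, limma) at 7dS and -1.43 (SE 0.31, adjusted p = 0.0269, limma) at 30dS. Without 1 library the adjusted p ran from 0.0555 to 0.136 at 7dS, and the call was lost without 1dS replicate 1 (0.103), 1dS replicate 3 (0.117), 7dS replicate 1 (0.136) or 7dS replicate 3 (0.122). At 30dS it ran from 0.0145 to 0.103, and was lost without 30dS replicate 1.

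bip-2 is a less abundant relative of bip-1. In X1 it was 39.7, 49.6, 43.7 and 37.1 normalized TPM at 1dS, 25.5, 30.1, 21.8 and 30.0 at 7dS, and 31.0, 28.6, 24.9 and 35.8 at 30dS. All starved values lay below the 1dS range. The log2 change was -0.65 (SE 0.17, adjusted p = 0.0396, limma) at 7dS and -0.49 (SE 0.17, adjusted p = 0.116, limma) at 30dS, so only 7dS passed. The 7dS call was lost without 7dS replicate 3 (adjusted p = 0.117, in a range of 0.0456 to 0.117). Like bip-1, it is on a list picked for a fall in these X1 libraries.

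For bip-2 in X2 the values were 87.2, 77.5, 92.3 and 79.7 normalized TPM at 1dS, 40.5, 59.3, 37.4 and 65.3 at 7dS, and 69.0, 66.8, 37.2 and 60.3 at 30dS. Again no starved library reached the 1dS range, although replicate 3 at 30dS was far below the other 30dS libraries. bip-2 fell by 0.76 at 7dS (SE 0.24, adjusted p = 0.0680, limma), and its log2 change of -0.56 at 30dS (SE 0.24, adjusted p = 0.144, limma) did not pass. With a library left out the adjusted p at 7dS ran from 0.0554 to 0.158 and missed the threshold without 1dS replicate 1 (0.133), 1dS replicate 2 (0.103), 1dS replicate 3 (0.137), 7dS replicate 1 (0.158) or 7dS replicate 3 (0.158).

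In the differentiated Xins cells bip-2 was 70.5, 55.2, 66.6 and 68.3 normalized TPM at 1dS, 21.9, 41.3, 28.0 and 30.1 at 7dS, and 27.1, 34.3, 25.7 and 32.1 at 30dS. In these values as deposited the groups were well apart. The log2 change was -1.11 at both times (SE 0.19, adjusted p = 0.0181 at 7dS and 0.0111 at 30dS, limma). These calls held with each library left out, at adjusted p between 0.0176 and 0.0561.

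calr was high everywhere and scattered widely between replicates. In X1 it was 210, 308, 214 and 273 normalized TPM at 1dS, 162, 203, 128 and 189 at 7dS, and 228, 180, 167 and 208 at 30dS. The X1 7dS libraries lay just below the 1dS range and the 30dS libraries overlapped it. The log2 change was -0.56 at 7dS (SE 0.21, adjusted p = 0.122, limma) and -0.35 at 30dS (SE 0.21, adjusted p = 0.368, limma).

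In X2, calr stood at 241, 301, 323 and 539 normalized TPM at 1dS, 365, 552, 270 and 494 at 7dS, and 368, 392, 233 and 377 at 30dS, all 3 groups overlapping. Its log2 change was 0.27 at 7dS (SE 0.31, adjusted p = 0.613, limma) and near 0 at 30dS (adjusted p = 1.00, limma). In Xins it was 385, 608, 525 and 709 at 1dS, 372, 524, 275 and 433 at 7dS, and 358, 440, 312 and 546 at 30dS. These groups overlapped too, with a log2 change of -0.48 at 7dS (SE 0.28, adjusted p = 0.433, limma) and -0.42 at 30dS (SE 0.28, adjusted p = 0.507, limma).

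The sensor atf6 was 18.3, 16.3, 14.4 and 18.8 normalized TPM in X1 at 1dS, 11.7, 15.0, 13.2 and 16.6 at 7dS, and 16.6, 12.4, 10.5 and 18.5 at 30dS. X2 libraries held 38.5, 46.0, 36.4 and 57.8 at 1dS, 33.2, 60.1, 40.1 and 60.2 at 7dS, and 55.2, 46.4, 30.0 and 51.8 at 30dS. Xins libraries held 32.7, 41.9, 30.9 and 42.1 at 1dS, 34.2, 50.8, 31.4 and 46.8 at 7dS, and 38.9, 35.4, 29.4 and 48.1 at 30dS. The groups of a population overlapped in every comparison. The log2 changes were -0.25 and -0.24 in X1 at 7dS and 30dS, 0.09 and 0.02 in X2, and 0.13 and 0.03 in Xins, with standard errors of 0.19 to 0.26 and adjusted p from 0.462 to 0.971 (limma). A p above the threshold does not show that atf6 was unchanged.

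As counts of members, 2 of 4 were called lower in X1 at 7dS, where 6.92% of all tested transcripts were, and 1 of 4 at 30dS, where 4.36% were. In X2 it was 2 of 4 at 7dS against 6.79% of all, and 1 of 4 at 30dS against 8.19%. In Xins both BiPs were called at either time, against 3.06% of all transcripts at 7dS and 3.85% at 30dS. Same-numbered Xins libraries deviated together at 1dS and 7dS, and with the replicate number as a block calr was also called lower at 7dS (adjusted p = 0.0865, limma), against 14.1% of all transcripts in that fit. In values as deposited, starved libraries without overlap below the 1dS range were found in 6 of 6 comparisons for bip-2, 5 for bip-1, 1 for calr and 0 for atf6. The share of all transcripts with such a pattern was 7.69% in X1 at 7dS, 6.86% in X1 at 30dS, 5.98% and 7.12% in X2, and 5.86% and 6.13% in Xins.

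Between 30dS and 7dS none of the members was called in any population, at an adjusted p of at least 0.938 (limma) and with 0 members at an unadjusted p under 0.05. Few transcripts of any kind were called there: 0.00754% in X1, 0.127% in X2 and 0.141% in Xins.

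The BiP calls depended on how libraries were scaled. When each library was set to a total of 1000000, all 12 BiP changes stayed negative, at log2 -1.16 to -0.10, but none passed (adjusted p from 0.180 to 0.894, limma). After quantile normalization 2 of the 12 passed (adjusted p from 0.0369 to 0.750). The size of the atf6 changes depended on scaling as well. At equal totals the log2 change of atf6 was 0.50 and 0.48 in X2 at 7dS and 30dS, and 0.53 and 0.29 in Xins. The bip-1 change in X2 at 7dS was then -0.50. In X1 atf6 changed by -0.05 and -0.11, and no atf6 change passed (adjusted p from 0.529 to 0.957, limma). The separation of groups depended on scaling too. At equal totals the starved libraries overlapped the 1dS range in every BiP comparison. The bip-1 libraries of X1, for instance, were then 131 to 243 rescaled TPM at 1dS and 61.4 to 142 at 7dS. A value that needs no scaling between libraries is the ratio of 2 transcripts within a library, and the sensor was therefore set against each chaperone in that way. These ratios are given as a description with no test. The share of all transcripts that fall below the 1dS range relative to atf6 was not computed. How unusual such a fall is therefore cannot be told from these ratios.

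bip-1 exceeded atf6 in every library, and by less after starvation. In X1 there were 9.53, 11.7, 13.2 and 11.3 bip-1 transcripts per atf6 transcript at 1dS, 6.80, 7.80, 4.82 and 6.01 at 7dS, and 6.13, 6.64, 5.87 and 5.38 at 30dS. X2 gave 10.6, 7.37, 18.3 and 8.59 at 1dS, 5.49, 6.18, 4.03 and 5.45 at 7dS, and 4.69, 5.26, 5.08 and 5.16 at 30dS. Xins gave 15.9, 12.99, 21.1 and 12.3 at 1dS, 4.69, 5.94, 5.13 and 6.64 at 7dS, and 4.12, 5.90, 5.31 and 7.06 at 30dS. In all 6 comparisons the starved libraries lay entirely below those at 1dS. The 30dS means (± SD, n = 4) were 6.003 ± 0.53 for X1, 5.05 ± 0.25 for X2 and 5.60 ± 1.23 for Xins, whereas at 1dS they were 11.4 ± 1.504, 11.2 ± 4.91 and 15.6 ± 4.03.

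**Figure D2:**
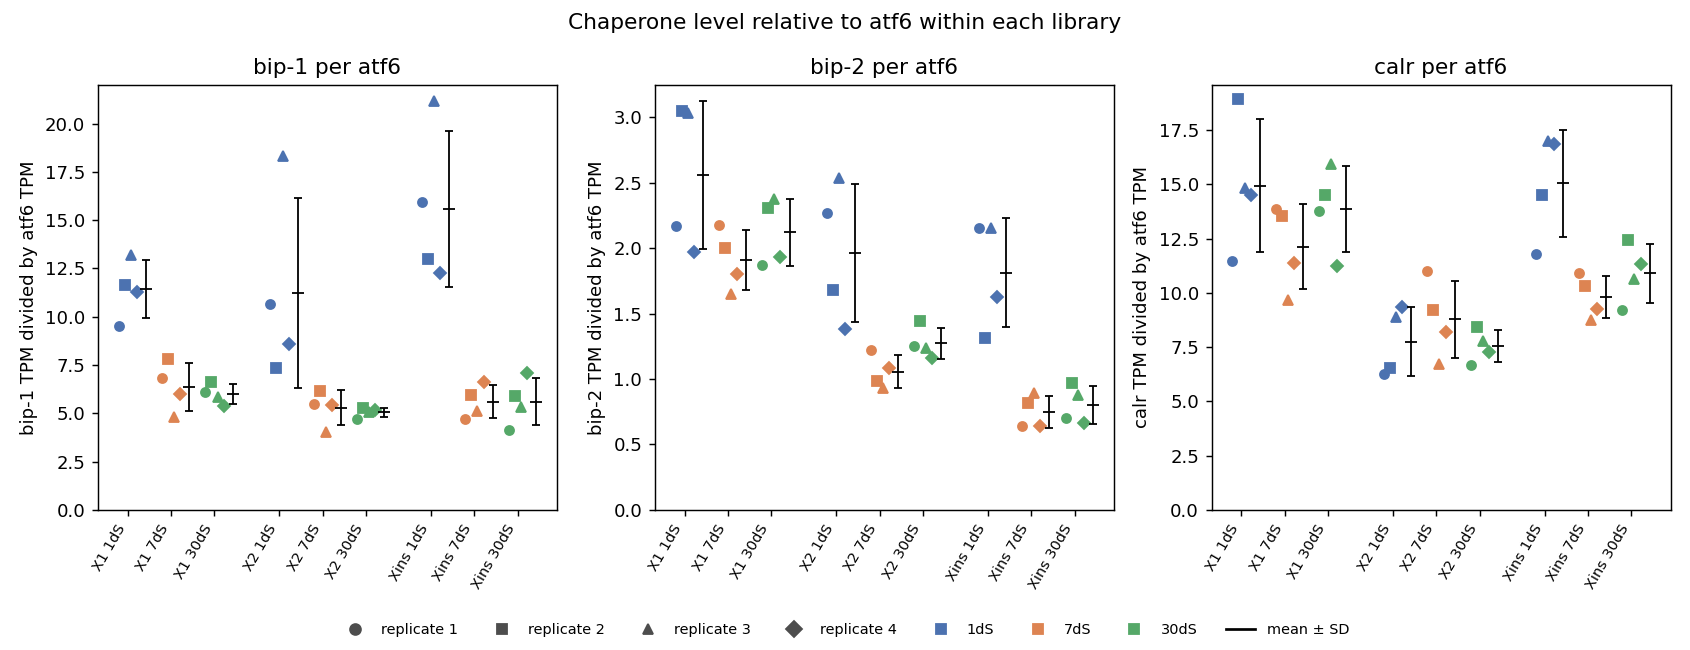
Level of bip-1, bip-2 and calr divided by that of atf6 in the same library (vertical axis, from 0), by population and days of starvation. Shapes give the replicate and black bars the mean with its SD (n = 4). Starved libraries hold 4.03 to 7.80 bip-1 transcripts per atf6 transcript, below the 7.37 to 21.1 of the 1dS libraries when each population is compared with its own 1dS group.

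The bip-2 to atf6 ratio fell out of the 1dS range in 3 of 6 comparisons. In Xins it went from 2.16, 1.32, 2.16 and 1.62 at 1dS to 0.641, 0.815, 0.890 and 0.643 at 7dS and 0.698, 0.970, 0.875 and 0.667 at 30dS, so every starved Xins library held less bip-2 than atf6. The X2 mean (± SD, n = 4) went from 1.97 ± 0.53 at 1dS to 1.06 ± 0.13 by 7dS and 1.27 ± 0.12 by 30dS, overlapping 1dS at 30dS only. In X1 it was 2.56 ± 0.57, 1.91 ± 0.23 and 2.12 ± 0.26, with overlap at both times. On the log2 scale the change in this ratio ran from -0.25 in X1 at 30dS to -1.26 in Xins at 7dS.

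calr kept closer to atf6. Per atf6 transcript, X1 held 14.9 ± 3.07 calr transcripts (SD, n = 4) on day 1, then 12.1 ± 1.96 and 13.9 ± 1.97 on days 7 and 30. In X2 the ratio was 7.75 ± 1.57, 8.78 ± 1.79 and 7.54 ± 0.75, the lowest of the populations. Xins went from 15.0 ± 2.45 to 9.80 ± 0.99 and 10.9 ± 1.36, and only its 7dS libraries lay wholly below 1dS. bip-1 against calr, the abundant chaperones of the set, went from 0.779 ± 0.12 in X1 at 1dS to 0.523 ± 0.04 at 7dS and 0.437 ± 0.05 at 30dS, from 1.45 ± 0.52 to 0.609 ± 0.08 and 0.672 ± 0.04 in X2, and from 1.05 ± 0.29 to 0.577 ± 0.12 and 0.511 ± 0.08 in Xins. In each population the starved libraries held less bip-1 per calr than all 1dS libraries.

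The summed level of listed markers of dividing cells was also lower after starvation. Over 20 such markers, 19 of them chosen by the study on their fall in X1, the summed normalized TPM was 2383 to 3982 in X1 at 1dS, 1250 to 1631 at 7dS and 1159 to 1672 at 30dS. It went from 2653 to 5363 down to 1079 to 1361 and 993 to 1354 in X2, and from 1000 to 2050 down to 580 to 732 and 620 to 898 in Xins. Of those tested, 16 of 19 were called lower in X1 at 7dS, 17 of 18 in X2 and 9 of 15 in Xins. The shares of all transcripts called lower were 6.92%, 6.79% and 3.06%. In rescaled TPM the sum at 1dS was 2577 to 3380 in X1 and 2659 to 3252 in X2. The sum therefore did not set the X1 gate apart from X2 at 1dS. Tested singly at a threshold of 0.01, 4 of 19 were lower in X2 than in X1 there, against 3.33% of all transcripts. At 7dS and 30dS it was 3 of 18 each, against 5.34% and 5.51%, with 0 higher. In Xins 16 of 19, 9 of 18 and 12 of 18 were lower than in X1, against 16%, 14.3% and 15.3%. cdk1, the marker not chosen on its fall in X1, had log2 changes of -0.15 and -0.22 in X1 at 7dS and 30dS (adjusted p = 0.605 and 0.459, limma). In X2 it fell by 1.79 at 7dS and by 1.38 at 30dS (adjusted p = 0.00398 and 0.00427, limma), from 6.58 to 9.34 rescaled TPM at 1dS to 1.20 to 3.10 and 2.37 to 3.96, with no overlap. In Xins it was too low to be tested, and 1 marker (dresden_comp27497_c0_seq1) was at 0 in every Xins library at 30dS. Their part in the BiP result was not tested. In sorted populations fewer cells of a type and less RNA per cell cannot be told apart.

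The other ER transcripts with a name in the study's lists gave a background for the 4 members. There were 21 of them, of which 16 were on lists chosen for a fall in X1, so their X1 counts are not independent evidence. In X1, 10 of the 19 tested were called lower and 2 higher at 7dS (median log2 change -0.78), and 6 lower and 1 higher at 30dS (median -0.71). Of all transcripts 6.77% and 5.43% were called higher there, and 6.92% and 4.36% lower. In X2, 3 of 18 fell at 7dS and 4 at 30dS, and in Xins 6 of 17 and 8 of 17, with none higher. The shares of all transcripts called lower were 6.79% and 8.19% in X2, and 3.06% and 3.85% in Xins. All 5 transcripts not on a list chosen for the fall in X1 missed the test in X2 and Xins at both times, and 2 of them rose in X1 at 7dS.

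Among partners of BiP, Hyou1, a large relative of Hsp70 that serves BiP as a nucleotide exchange factor, fell at both times in all 3 populations. Its log2 change was -1.21 and -1.08 in X1 at 7dS and 30dS, -0.88 and -0.88 in X2, and -1.09 and -0.97 in Xins, with adjusted p from 0.00384 to 0.0579 (limma). dnajb11, an ER Hsp40 cochaperone, fell by 0.92 in X1 (adjusted p = 0.0409, limma) and by 1.07 in Xins at 7dS (adjusted p = 0.0262, limma). Another ER Hsp40, dnajb9, rose instead in X1, by 0.60 at 7dS (adjusted p = 0.0330, limma) and 0.74 at 30dS (adjusted p = 0.0179, limma). The cofactors of BiP thus moved in both directions in X1.

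The transcripts with the greatest change on this list were mostly folding factors. HSP90B1, the Hsp90 of the ER, went from 260 ± 125 normalized TPM in X1 at 1dS to 71.4 ± 11.02 at 7dS and 85.0 ± 17.7 at 30dS (SD, n = 4), and in X2 from 354 ± 89.5 to 181 ± 56.9 at 30dS. MLEC, the lectin malectin, went from 111 ± 57.0 to 43.5 ± 12.6 in X1 at 7dS, from 207 ± 64.2 in X2 to 103 ± 24.5 and 91.7 ± 16.8, and from 153 ± 69.5 to 55.9 ± 15.4 in Xins at 7dS. The PDIA5 transcript dresden_comp821_c0_seq1, a disulfide isomerase, went from 28.4 ± 9.14 to 9.999 ± 2.06 in X1 at 30dS and from 142 ± 43.7 to 44.1 ± 20.1 in Xins at 30dS. In Xins the prolyl isomerase PPIB went from 304 ± 18.0 to 110 ± 11.7 at 7dS and 105 ± 20.1 at 30dS. Each of these falls passed the test in values as deposited. Calls of the other ER transcripts were not followed under other scalings or with libraries left out.

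xbp1, the other transcription factor of the response, ran counter to BiP in X1 and X2 by value and passed the test only in X1 at 7dS. It was 37.0 to 71.7 normalized TPM in X1 at 1dS, 84.6 to 96.5 at 7dS and 67.7 to 87.2 at 30dS, with a log2 change of 0.77 (adjusted p = 0.0352, limma) and then 0.49 (adjusted p = 0.166, limma). The log2 changes were 0.51 and 0.52 in X2, and -0.31 and -0.23 in Xins, with adjusted p from 0.197 to 0.696 (limma). Neither atf6 nor xbp1 was called lower where both BiPs were.

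**Figure D3:**
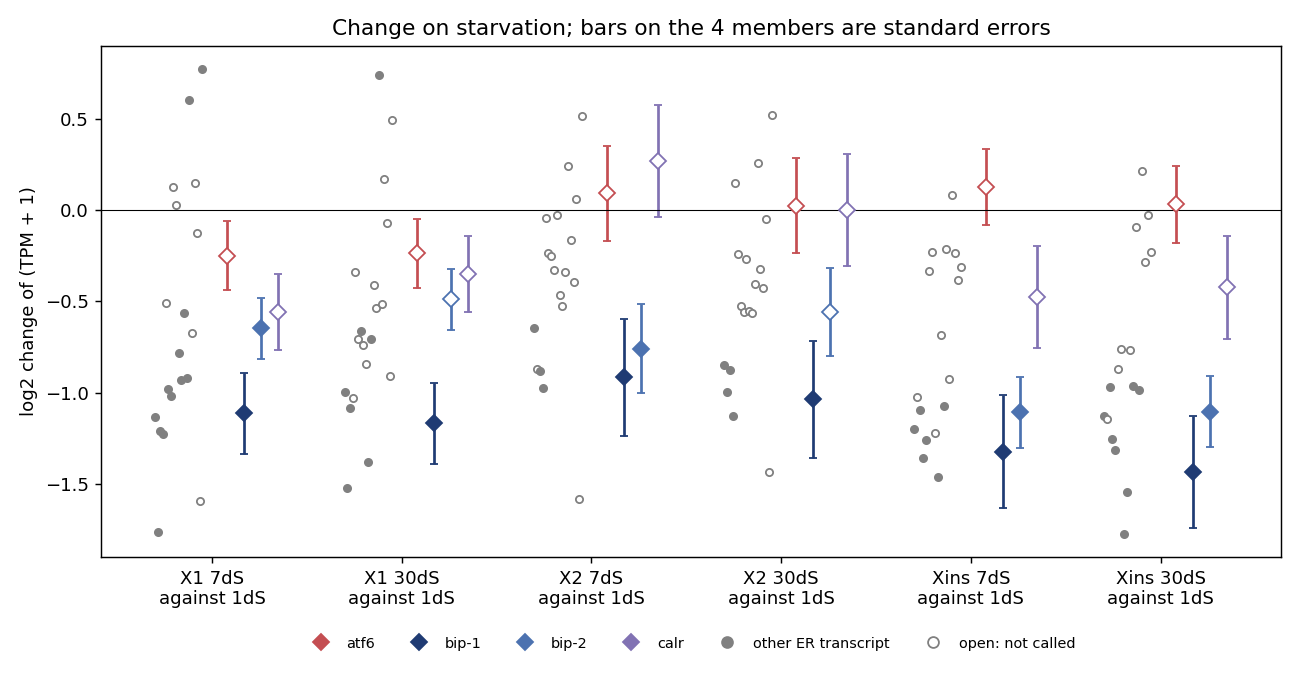
Log2 change of (normalized TPM + 1) against 1dS for 6 comparisons. Diamonds are atf6, bip-1, bip-2 and calr with their standard errors, grey circles the other ER transcripts tested (17 to 19), and filled symbols passed the threshold of 0.1. bip-1 lies between -0.92 and -1.43 throughout, while atf6 lies between -0.25 and 0.13.

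Populations were compared at each time after every library had been set to a total of 1000000, since each table had been normalized on its own, at a threshold of 0.01. By their means atf6, bip-1 and calr were lowest in X1 at each time, and bip-2 was too except for a near tie with Xins at 30dS. At this scale the median of all transcripts was itself higher in Xins than in X1, by 0.56, 0.67 and 0.76 (log2) at 1dS, 7dS and 30dS, and in X2 by 0.11, 0.18 and 0.41, so log2 differences are also given less that median. With median-of-ratios scaling those medians were within -0.06 to 0.08. The share of all transcripts whose libraries do not overlap between populations was not computed.

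At 1dS, bip-1 averaged 181 ± 47.4 (SD, n = 4) rescaled TPM for X1, 394 ± 144 for X2 and 489 ± 129 for Xins, and the X1 libraries lay below all others. The Xins difference from X1 was 1.42 (log2, SE 0.29, adjusted p = 0.000619, limma), or 0.86 less the median, and it was the only member called there, where 37.4% of all transcripts were called higher and 16% lower. With median-of-ratios scaling it was 0.66 and not called (adjusted p = 0.0738, limma). The difference of X2 from X1 was 1.09 (adjusted p = 0.0193, limma), short of the threshold. In that comparison 0 of 4 members were called, with 3 at an unadjusted p under 0.05, and 5.06% of all transcripts were called higher and 3.33% lower. The other members at 1dS were 16.3 ± 5.34, 40.3 ± 22.5 and 33.7 ± 14.9 for atf6 in X1, X2 and Xins, 39.4 ± 6.15, 70.7 ± 20.7 and 56.8 ± 15.3 for bip-2, and 237 ± 69.1, 322 ± 231 and 517 ± 260 for calr.

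At 7dS atf6 was 9.55, 18.2, 12.7 and 22.8 rescaled TPM in X1, 33.4, 71.7, 33.3 and 85.5 in X2, and 32.9, 65.8, 27.2 and 73.3 in Xins. Every X2 and Xins library lay above every X1 library, with a difference of 1.70 for X2 (log2, SE 0.41, adjusted p = 0.00632, limma) and 1.54 for Xins (SE 0.41, adjusted p = 0.00482, limma), or 1.53 and 0.87 less the median. How common such a separation is among all transcripts was not computed. The sensor atf6 was the only member called in either comparison, where 15.8% and 41% of all transcripts were called higher and 5.34% and 14.3% lower. Neither call held with each library left out. As each library was left out, the adjusted p ran from 0.00565 to 0.0237 for X2, and the call was lost without X1 replicates 1, 2 or 3 or X2 replicates 2 or 4. For Xins it ran from 0.00271 to 0.0182, and the call was lost without X1 replicates 1 or 3 or Xins replicates 2 or 4. With median-of-ratios scaling the Xins difference was 0.73 (adjusted p = 0.0133, limma) and was not called.

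Libraries with the same replicate number deviated together across populations at 7dS and 30dS, and the fit with the number as a block made further calls. The sources do not say that such libraries share animals. Pairing was judged from these same values, so the adjusted p of the block fits depend on that choice. At 7dS all 4 members were higher in X2 than in X1, by 1.70 for atf6 (adjusted p = 6.06e-07), 1.498 for bip-1 (8.25e-07), 1.29 for calr (1.40e-06) and 0.89 for bip-2 (0.000105), against 30.1% of all transcripts called higher in that fit. In Xins, atf6, bip-1 and calr were higher than in X1, by 1.54, 1.42 and 1.30 (adjusted p from 2.61e-07 to 2.79e-07), against 51.5% of all. Less the median of all transcripts these differences were 0.87, 0.75 and 0.63. bip-2 did not pass between Xins and X1 (0.24, adjusted p = 0.112, limma).

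At 30dS no member was called without the block in X2 or Xins against X1, with 3 at an unadjusted p under 0.05 in each, where 19.9% and 42.1% of all transcripts were called higher and 5.51% and 15.3% lower. The nearest was atf6 at 18.2, 11.01, 8.14 and 25.7 rescaled TPM in X1 and 73.04, 46.5, 24.4 and 76.8 in X2, a difference of 1.74 (SE 0.46, adjusted p = 0.0103, limma). Only X2 replicate 3 fell within the X1 range. With the block, all 4 members were higher in X2 (adjusted p from 1.07e-06 to 0.00066, limma; 37.6% of all transcripts), and atf6, bip-1 and calr in Xins (adjusted p from 2.26e-06 to 0.000112, limma; 53.7% of all). Less the median, those Xins differences were 0.60, 0.53 and 0.32. With median-of-ratios scaling and the block, atf6 stayed called in Xins (0.56, adjusted p = 0.000336, limma). There bip-1 (0.45, adjusted p = 0.0169) and calr (0.24, adjusted p = 0.122) were not called, nor was calr in X2 (0.33, adjusted p = 0.0492). In that fit bip-2 was called lower in Xins than in X1.

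bip-2 was the member whose place in Xins differed from the rest. At 30dS it was 34.1, 25.4, 19.4 and 49.7 rescaled TPM in X1, 91.3, 66.9, 30.3 and 89.3 in X2, and 27.0, 36.8, 17.6 and 49.0 in Xins. Each X2 library exceeded the X1 and Xins libraries of its number. The difference between Xins and X1 was 0.01 at 30dS (adjusted p = 0.983, limma), or -0.75 less the median, and its direction turned under median-of-ratios scaling, to -0.81 (adjusted p = 0.00437), with -0.57 (adjusted p = 0.0516) at 7dS and -0.26 (adjusted p = 0.331) at 1dS. Against X2, bip-2 in Xins differed by -0.65 at 7dS and -1.04 at 30dS. Neither passed without the block (adjusted p = 0.198 and 0.0499), and both did with it (0.000677 and 0.000155), where 18.4% and 20.9% of all transcripts were called lower. No member was called between Xins and X2 without the block, with 0 at an unadjusted p under 0.05 at 1dS and 7dS and 1 at 30dS, although 42.5%, 41.4% and 39.6% of all transcripts were.

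**Figure D4:**
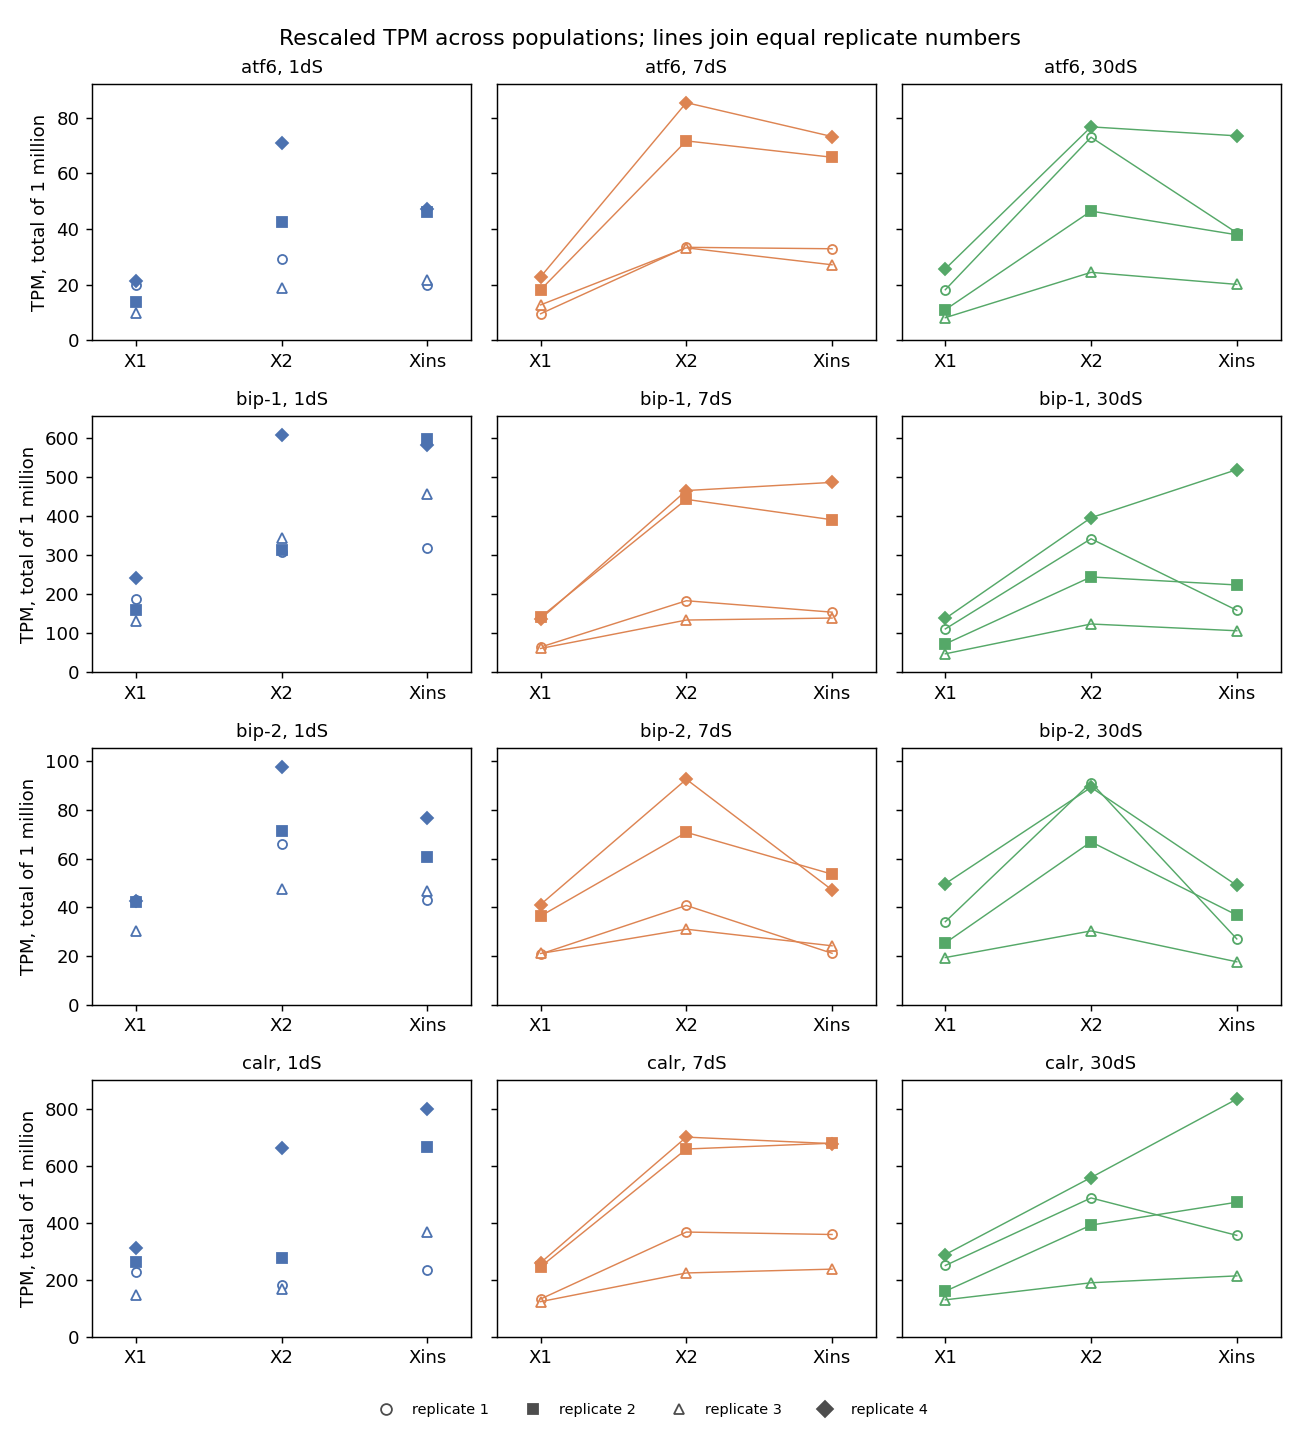
TPM after setting each library to a total of 1000000 (vertical axes, from 0) in X1, X2 and Xins, with a row for each member and a column for each time. Shapes give the replicate, and lines join libraries of equal number at 7dS and 30dS, where they deviate together. atf6 is lowest in X1 in each joined set, and bip-2 peaks in X2 in each.

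xbp1, as a transcription factor beside atf6, also differed between populations. It was higher in X2 than in X1 by 2.32, 2.27 and 2.68 (log2) at 1dS, 7dS and 30dS, and in Xins by 2.37, 1.498 and 1.79, each at an adjusted p of at most 0.00015 (limma). Of the 19 listed ER transcripts tested, xbp1 among them, 2, 6 and 7 were higher in X2 than in X1 at the successive times, where 5.06%, 15.8% and 19.9% of all transcripts were. In Xins 5, 3 and 4 of the 19 were higher, a smaller share than the 37.4%, 41% and 42.1% of all transcripts. PDIA2, a disulfide isomerase, was the only member of that list called lower, in X2 and in Xins at all 3 times; at 1dS it was 5.98 ± 1.03 rescaled TPM in X1 and 0.0688 ± 0.0861 in X2 (SD, n = 4). Several disulfide isomerases were among the greatest differences on that list: pdia13 was higher in Xins by 2.23, 2.34 and 2.16, the PDIA5 transcript dresden_comp821_c0_seq1 was higher there by 1.96 at 7dS and 1.92 at 30dS, and in X2 the P4HB transcript dresden_comp13521_c0_seq1 was higher by 2.57 at 7dS and 2.68 at 30dS, with 2.54 at 7dS for another, dresden_comp250_c0_seq1.

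Whether the response to starvation differed between populations was asked with an interaction term, fitted to all 36 rescaled libraries, at a threshold of 0.1. No member passed in any of the 6 tests without a replicate block, at an adjusted p of at least 0.735 (limma) and with 0 at an unadjusted p under 0.05. At 7dS the share of all transcripts called was 1.5% for X2 against X1, 1.66% for Xins against X1 and 2.3% for Xins against X2, and at 30dS it was 2.72%, 1.91% and 3.46%. With the replicate number as a block, calr passed at 7dS for X2 against X1 (1.03, adjusted p = 0.0345, limma), where 8.33% of all transcripts were called higher, and bip-2 at 30dS for Xins against X2 (-0.74, adjusted p = 0.0373, limma), where 11.9% were called lower. That fit also blocks the 1dS libraries, whose numbers did not pair across populations. The greater fall of both BiPs in Xins than in X1, seen in values as deposited, passed in neither fit and was not shown to differ beyond the spread. In the rescaled values of the fit the difference for bip-1 was -0.0013 at 7dS, almost none, and -0.13 at 30dS. For bip-2 it was -0.26 and -0.48.

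Across the 36 libraries, on log2(rescaled TPM + 1), the named transcripts most like each member were sought among 126 with a mean of at least 10. bip-1 was closest to dnajc3 (r = 0.94), an ER Hsp40, to Hyou1 (0.92) and to the P4HB transcript dresden_comp250_c0_seq1 (0.91). For bip-2 these were HSP90B1 (0.88), the same P4HB transcript (0.88) and Hyou1 (0.84). calr was closest to dnajc3 (0.95), the initiation factor EIF5 (0.90) and dnajb11 (0.90). atf6 was closest to an EEF1A1 transcript (0.96), a translation elongation factor, followed by P4HB dresden_comp250_c0_seq1 (0.90) and dnajc3 (0.90). The points share libraries, scaling and groups: after removal of group means the members still correlated with each other at 0.91 to 0.95 in rescaled values and at 0.59 to 0.77 in values as deposited, so these r values describe the libraries and single out no relation.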

How the data were processed

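The members and gene lists were chosen with earlier results of these data known. The authors made TruSeq libraries, sequenced them in 51 cycles on a HiSeq2500, removed ribosomal reads with Bowtie2, estimated TPM with kallisto 0.43.0 (a version given in the submitters' processing notes; mean fragment 200 bases with an SD of 20) against the Dresden transcriptome, version 4, and divided them by Sleuth size factors. Each deposited table covers a single population, its signal being that scaled TPM for 26558 transcripts in 12 libraries. It holds no counts, so depth per library is unknown and no count test was run.

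Values were tested as log2(value + 1) with limma 3.58.1 (intensity trend, R 4.3.3), keeping transcripts with a mean of at least 1. Times used the 12 libraries of a table (threshold 0.1), populations the 12 rescaled libraries of a time (0.01), and interactions all 36 (0.1). The fits were tested on simulated data. Tables and plots used Python 3.11.15, pandas 2.3.3, numpy 2.4.6 and matplotlib 3.10.9. Replicate numbers come from the labels. Deviations from group means of same-numbered libraries correlated at 0.19 to 0.84 in the 6 population comparisons at 7dS and 30dS. They correlated at 0.45 to 0.71 between Xins at 7dS and 1dS, and at 0.11 to 0.91 between 30dS and 7dS in X1 and Xins. Those were paired, since every same-numbered pair was over 0.1. Libraries of different number ran from -0.69 to 0.59 in Xins against X1 at 30dS. Between Xins at 7dS and 1dS they ran from -0.68 to 0.66. Other ER transcripts were named by the 2 greatest called changes per comparison, plus xbp1; Hyou1, dnajb11 and dnajb9 were added after their values were seen, as BiP partners. Alternatives were another pseudocount, no filter, other scalings, fewer or more libraries, a replicate block and each library left out. Of the named transcripts, only the 4 members were followed through them. Sequences are not printed here.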

Additional observations from a re-analysis of the deposited data

Results flagged for a closer look

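calr in X2 at 30dS stood at 233 normalized TPM in replicate 3, far below the other libraries of its group at 368 to 392. The gap took up 85.3% of the range of the group. Of 36 sets of 4 libraries examined in this way it was the only such value, and chance alone gives about 1 in 20 sets. A count of 1 in 36 does not exceed that rate. Replicate 3 of X2 at 30dS was also the lowest of its group for atf6, bip-1 and bip-2.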

How the results depend on the processing

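With equal totals, no member was called in any of the 6 comparisons with 1dS (0), and with quantile normalization 0 were in X1 and X2 and 1 in Xins at each time. With only the 2 times compared in the fit, 0 were called in X2 at 7dS and 1 in Xins at 7dS, and without the filter 1 was called in X2 at 7dS. calr in X2 at 30dS turned from near 0 to 0.46 with equal totals and 0.52 with quantile normalization. Between populations, values as deposited gave 3 calls for X2 against X1 at each time, 4, 3 and 3 for Xins against X1, and 1 for Xins against X2 at 30dS. Median-of-ratios scaling gave 1 call for X2 against X1 at 1dS and at 30dS, 0, 0 and 1 for Xins against X1, and 2, 1 and 1 for Xins against X2. Without the filter 0 were called at 7dS in X2 or Xins against X1, a pseudocount of 0.1 gave 1 in X2 against X1 at 30dS, and all 36 libraries in the fit gave 2 there and 2 and 1 in Xins against X1 at 7dS and 30dS. bip-2 between Xins and X1 turned to -0.26, -0.57 and -0.81 with median-of-ratios scaling, and to -0.010 as deposited at 30dS. The ratios to atf6 moved by less than their spread with a pseudocount of 1. The cause of these changes was not tested.

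Against 1dS, the replicate block gave 3 calls in X1 at 7dS, where calr passed (-0.56, adjusted p = 0.0733, limma), and 2 in X1 and 2 in X2 at 30dS, where bip-2 passed. In these comparisons the libraries shared only a number, since not every pair correlated over 0.1. Numbers did pair between 30dS and 7dS in X1 (0.11 to 0.79) and Xins (0.33 to 0.91), where the block gave 0 calls, as without it. Between populations at 1dS, where the numbers did not pair either, it gave 3 calls in X2 and 3 in Xins against X1. At 7dS and 30dS, where they paired, it gave 4 and 4 for X2 against X1, 3 and 3 for Xins against X1, and 1 and 1 for Xins against X2. For the interactions the block called calr in X2 against X1 at 7dS (1.03, adjusted p = 0.0345, limma) and bip-2 in Xins against X2 at 30dS (-0.74, adjusted p = 0.0373, limma), 1 each. Together with median-of-ratios scaling, a combination chosen after seeing the data, the block gave 1, 0 and 2 calls at 1dS for X2 against X1, Xins against X1 and Xins against X2, 4, 4 and 4 at 7dS, and 3, 2 and 2 at 30dS, with bip-2 again at -0.26, -0.57 and -0.81 between Xins and X1, called lower at 7dS and 30dS. In the interactions at 7dS it called 1 member each: calr in X2 against X1 (0.90, adjusted p = 0.0164), atf6 in Xins against X1 (0.51, adjusted p = 0.0567, limma) and calr, downward, in Xins against X2. The cause was not tested.

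Leaving out each library in turn gave 1 to 2 calls in X1 and in Xins at each time, 0 to 2 in X2 at 7dS and 0 to 1 at 30dS. For X2 against X1 it gave 0 to 1 at 7dS and at 30dS, for Xins against X1 0 to 2 at 7dS and 0 to 1 at 30dS, and for Xins against X2 0 to 1 at 30dS. Directions turned for atf6 in X2 (-0.027 to 0.25 at 7dS, -0.076 to 0.21 at 30dS), atf6 in Xins at 30dS (-0.087 to 0.14), calr in X2 at 30dS (-0.16 to 0.23), calr in X2 against X1 at 1dS (-0.17 to 0.49), atf6 in Xins against X2 (-0.50 to 0.12 at 1dS, -0.38 to 0.082 at 7dS) and bip-2 in Xins against X1 at 30dS (-0.21 to 0.26), none of them called. This list leaves out bip-1 and calr between Xins and X2, all members between 30dS and 7dS, and most interactions. Depth is unknown, so how far counting error limits the low atf6 levels in X1 could not be given.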
